A study of Mus musculus with 38 samples.

Results

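The regions described here are the open-chromatin peaks at the loci of Zeb1 and Zeb2, 110 of the 242933 peaks in 2 deposited tables. A peak was taken as a member where the nearest mm10 protein-coding gene body, at most 100 kb away, was Zeb1 or Zeb2. The table of endogenous tumour-infiltrating cells held 38 members among 73610 peaks, 14 at Zeb1 and 24 at Zeb2. The table of OT-1 and naive cells held 72 members among 169323 peaks, 30 at Zeb1 and 42 at Zeb2. Of the 38 endogenous members, 35 overlapped a member of the other table, and 34 of its 72 members overlapped an endogenous one.

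Accessibility was measured with ATAC-seq, in which the Tn5 transposase cuts and tags open DNA. All cells were CD8+ T cells. The mice are given as C57BL/6J and wild-type, and as either aged (64 to 68 weeks) or young (10 to 12 weeks). The OT-1 cells described below carry a transgenic T cell receptor, and whether wild-type refers to their hosts is not stated. Tumours were B16-OVA melanomas taken at day 15, and their T cells were sorted by the surface proteins Slamf6 and Tim-3 (encoded by Havcr2) into Tterm, the terminally exhausted cells (Slamf6- Tim-3+), Tprog, the progenitor exhausted cells (Slamf6+ Tim-3-), and Tadys, which the labels describe as dysfunctional and tied to age (Slamf6- Tim-3-). The endogenous table held 2 aged Tadys, 3 aged Tterm, 3 aged Tprog, 5 young Tterm and 4 young Tprog libraries. The other table held tumour libraries of OT-1 cells, which carry a transgenic T cell receptor for ovalbumin, namely 6 aged Tterm, 2 aged Tprog, 7 young Tterm and 2 young Tprog, beside 2 aged and 2 young libraries of naive cells from spleen. The sources used here do not say which hosts the OT-1 cells had been in or how naive cells were gated. Whether the age of an OT-1 library is that of the cells or of their host is thus not known. Libraries were made from pools of 5000 to 50000 cells, and whether they are biological or technical replicates is not stated for each, and p-values reflect library-to-library spread that can be partly technical.

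Zeb1 and Zeb2 encode zinc finger E-box-binding homeobox proteins, transcriptional repressors that bind E-box motifs through a pair of zinc finger clusters and recruit the CtBP co-repressors. They are best known for silencing E-cadherin (Cdh1) in epithelial cells. In mouse CD8+ T cells, Zeb2 acts downstream of T-bet in the differentiation of terminal effector cells, while Zeb1 is needed for memory cells.

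Zeb2 (gene ID 24136) lies on the minus strand of chromosome 2 between 44983512 and 45117442 in mm10. Positions below are distances of a peak's centre from the first transcription start, positive into the gene. RefSeq places 4 Zeb2 starts in GRCm38.p6, the assembly of mm10, and 2 of them lay under a peak in both tables. Start 1, at 45117442, lay under the peak at +0.5 kb, which began at 45116322 in the endogenous table. Start 4, at 45110277, lay under the peak at +7.6 kb (45108438 to 45111260), which had the highest mean of all Zeb2 peaks. Their upstream sequences from RefSeq, 250 bases each on the minus strand (chr2:45117443-45117692 and chr2:45110278-45110527), are shown because these peaks are the promoter regions to which the distal peaks are compared.
Zeb2 start 1: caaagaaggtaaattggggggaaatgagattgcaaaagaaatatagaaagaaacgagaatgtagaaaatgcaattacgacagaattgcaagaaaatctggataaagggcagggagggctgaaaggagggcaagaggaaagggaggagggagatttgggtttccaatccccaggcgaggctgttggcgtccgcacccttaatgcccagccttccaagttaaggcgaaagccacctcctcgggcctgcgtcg
Zeb2 start 4: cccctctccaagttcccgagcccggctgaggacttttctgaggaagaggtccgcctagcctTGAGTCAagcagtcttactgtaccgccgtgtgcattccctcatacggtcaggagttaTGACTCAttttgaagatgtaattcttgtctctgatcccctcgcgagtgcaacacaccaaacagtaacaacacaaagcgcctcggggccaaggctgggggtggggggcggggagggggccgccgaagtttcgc
Capitals mark the TGANTCA motif, the consensus of AP-1 factors, which reads the same on both strands and stood 189 and 132 bases before start 4. It occurred in 6.75% of 32851 promoter windows of the same source. None of the 4 Zeb2 windows held CACCTG (an E-box of ZEB proteins, 17.22% of windows), AGGTGTGA (T-box, 1.12%), TGTGGTT (RUNX, 4.4%), CTTTGAA (TCF, 4.46%) or CAGATG (E-box, 14.44%) on either strand. A match is a match of letters and does not show binding.

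Values are normalized reads per peak, that is reads divided by a size factor per library, and group means carry ± SD. Log2 differences with ± SE come from limma, fitted to log2 of the value plus 1 over all tested peaks of a table, with a term for sequencing batch 6 in the second table, and a fitted difference may thus differ from the ratio of 2 group means. A peak is called, and is said to rise or fall, where its Benjamini-Hochberg adjusted p over all tested peaks was under 0.05. Peaks with a mean under 10 were not tested, which left all 38 endogenous members and 40 of 72 members in the other table, 17 at Zeb1 and 23 at Zeb2. Depth ranged between 4.64 and 87.6 megareads in peaks per endogenous library and between 6.80 and 27.7 megareads in the others. In bulk samples a lower value cannot be told apart as fewer cells with an open site or less opening per cell. The CD8 T cell genes Cd8a, Cd8b1, Cd3e and Cd3d had open gene ends in every group, no B cell marker gene had a tested gene-end peak in the endogenous table, and the Havcr2 gene-end peak was higher in every Tterm library than in every Tprog library of the same age and table. Slamf6 gene-end reads were lower in every Tterm than in every Tprog library of the same age and table. The gap was narrow in aged OT-1 cells (up to 225.65 against at least 228.09). Mitf and Mlana of the melanoma list also had open gene ends in every group. Endogenous melanoma sums overlapped between young Tterm (720 to 1110) and young Tprog (708 to 1056). They also overlapped between aged Tterm (977 to 1112) and aged Tprog (1030 to 1133). The aged OT-1 Tprog libraries differed most between replicates (correlation over peaks 0.731), followed by Tadys (0.8635), and every other library had a mean correlation with its own group of at least 0.905. Aged OT-1 Tprog came from batch 6 alone, and naive cells from batch 3 alone. The endogenous libraries are given as batches 1 to 2, without a batch for each library. Their fit had no batch term, so batch may add to the differences between endogenous groups. The OT-1 libraries outside batch 6 are likewise given only as batches 4 to 5.

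Accessibility along Zeb2 differed between endogenous Tterm and Tprog in both directions, and the called peaks lay away from the starts. In young mice 4 of 24 Zeb2 peaks rose and 3 fell in Tterm relative to Tprog, beside 25.6% of all tested peaks called in this comparison, and the median log2 difference of Zeb2 peaks was 0.14, against -0.01 over all peaks. In aged mice 3 Zeb2 peaks rose and 2 fell, beside 12.1% of all peaks, with a median of 0.24 against 0.01. The called share of Zeb2 peaks was 29.2% in young mice, near that background, and 20.8% in aged mice. Some marker sums of other cell types moved with the same contrast. The NK cell list (Klrb1c alone of 4 genes has a gene-end peak) summed to between 222 and 347 in young Tterm and between 150.4 and 205 in young Tprog, and to between 243 and 343 in aged Tterm and between 130.4 and 169 in aged Tprog, without overlap at either age. The myeloid list (4 of 7 genes, with none at Adgre1, Csf1r or Lyz2) summed to between 1903 and 2234 in young Tterm and between 1389 and 1576 in young Tprog, and overlapped in aged mice (1499 to 1878 in Tterm, 1418 to 1547 in Tprog). Over all their peaks in young mice, 5 of 15 NK peaks rose and 1 fell, and 9 of 35 myeloid peaks rose and 5 fell. In aged mice 2 of 15 NK peaks rose and 2 fell, with a median log2 difference of -0.115. There 8 of 35 myeloid peaks rose and 2 fell. The B cell list has 11 tested peaks away from gene ends. Of these, 0 rose and 4 fell in young mice, and 0 rose and 2 fell in aged mice, all falls at Pax5. The part of these markers in the Zeb2 and Zeb1 differences was not tested.

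**Figure D1:**
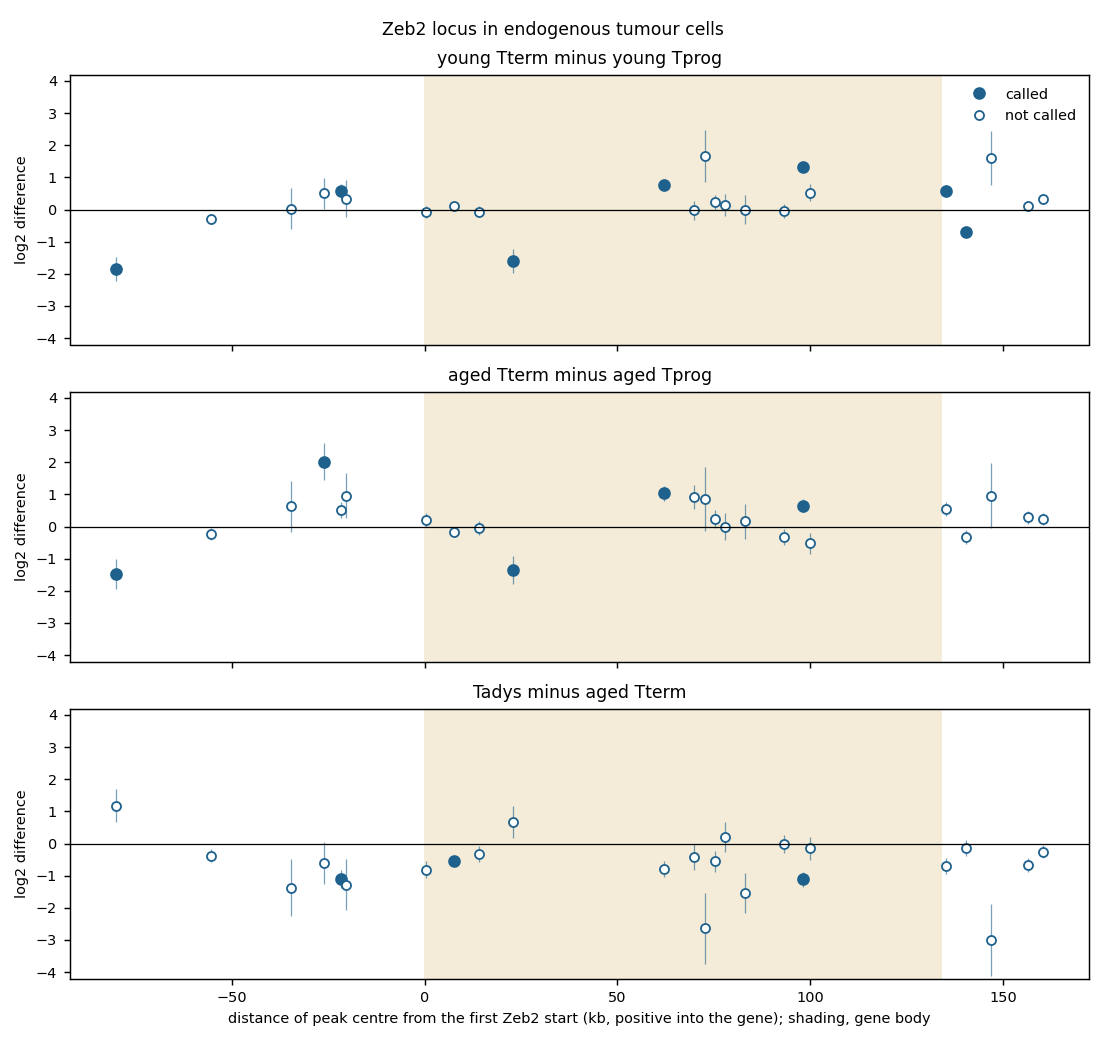
Log2 difference (limma, bars ± SE) of each of the 24 Zeb2 peaks against the distance of its centre from the first Zeb2 start in kb, for young Tterm minus young Tprog, aged Tterm minus aged Tprog and Tadys minus aged Tterm. Filled points are called at an adjusted p under 0.05 and the shaded band is the gene body; the peaks at +98.1 and +62.1 kb lie above 0 in both Tterm panels and below 0 in the Tadys panel.

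The peak of lowest adjusted p in young mice lay inside the gene at +98.1 kb (chromosome 2, 45018651 to 45020042). It held 392, 282, 294, 360.1 and 321 normalized reads in young Tterm, against 144, 149, 108 and 119.6 in young Tprog. Every young Tterm library was above every young Tprog library, with means of 329.6 ± 46.1 and 130.3 ± 19.4 and a log2 difference of 1.33 ± 0.17 (adjusted p = 1.301e-06). In aged mice the same peak held 335, 251 and 339.6 in Tterm, against 161, 226 and 200.2 in Tprog. The aged groups did not overlap either, and the difference was 0.65 ± 0.21 (adjusted p = 0.0385). The aged call was lost with 4 of the 6 libraries left out, with an adjusted p of up to 0.1586, and with equal library totals (0.06086) or quantile scaling (0.05723), while the young call was kept with each library left out.

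The second intragenic peak of this kind lay at +62.1 kb (45054199 to 45056565). It held 276, 320.2 and 326 in aged Tterm, against 138, 181 and 135 in aged Tprog, and it rose by 1.03 ± 0.22 (adjusted p = 0.002117). Young Tterm held 332, 336, 351, 289 and 210.1, against 173, 237, 162 and 143 in young Tprog, and 1 young Tterm library fell below the highest Tprog library. The young difference was 0.76 ± 0.18 (adjusted p = 0.002427). At the downstream end of the gene, the peak at +135.3 kb averaged 339.5 ± 53.3 in young Tterm and 229 ± 46.7 in young Tprog, a difference of 0.57 ± 0.18 (adjusted p = 0.01764), and in aged mice it averaged 369 ± 31.7 in Tterm and 259 ± 78.1 in Tprog and was not called. That young call was lost without young Tterm replicate 3 (adjusted p = 0.06082) or without young Tprog replicate 4 (0.1024), and with equal library totals (0.08351).

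Other Zeb2 peaks moved the opposite way. Upstream of the gene at -80.0 kb (45197038 to 45197812), young Tterm held 16.9, 18.04, 21.9, 26.5 and 7.16, against 49.6, 52.4, 83.9 and 71.0 in young Tprog, and aged Tterm held 31.0, 16.6 and 14.1, against 65.3, 49.1 and 54.0 in aged Tprog. Tterm lay below Tprog in every library at both ages, by -1.85 ± 0.37 in young mice (adjusted p = 0.0004572) and by -1.48 ± 0.46 in aged mice (0.03055). Of the peaks named after their values were seen, that at +22.9 kb also fell at both ages, averaging 20.99 ± 7.46 in young Tterm and 65.1 ± 21.4 in young Tprog (-1.61 ± 0.36, adjusted p = 0.001411), and 22.7 ± 11.2 in aged Tterm and 55.8 ± 6.65 in aged Tprog (-1.36 ± 0.44, 0.04173). The aged calls at these 2 peaks were each lost with 5 of 6 libraries left out, with adjusted p-values of up to 0.1399 at -80.0 kb and 0.1991 at +22.9 kb. Quantile scaling also ended both (0.05487 and 0.06468), and edgeR (0.05702) and a fit of the compared groups alone (0.05498) ended that at +22.9 kb. The remaining called Zeb2 peaks of this comparison, also named after their values were seen, were at +140.5 kb (lower in young Tterm, -0.69), -21.6 kb (higher in young Tterm, 0.57) and -26.0 kb (higher in aged Tterm, 2.02). The calls at -21.6 and -26.0 kb were lost with 5 of 9 and with 3 of 6 libraries left out, and that at -21.6 kb also with equal library totals (0.1376).

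The peaks over the Zeb2 starts themselves were not called between endogenous Tterm and Tprog. The start 1 peak held 222, 235 and 189.7 in aged Tterm, against 219, 183 and 159.5 in aged Tprog, and 189, 186, 195, 191 and 121 in young Tterm, against 158, 154, 199.5 and 228 in young Tprog. The start 4 peak averaged 821 ± 94.5 in aged Tterm and 911 ± 36.6 in aged Tprog, and 849 ± 140.1 in young Tterm and 774 ± 80.4 in young Tprog. Tterm and Tprog libraries overlapped in each of these pairs, in the aged start 4 pair through 1 Tterm library.

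**Figure D2:**
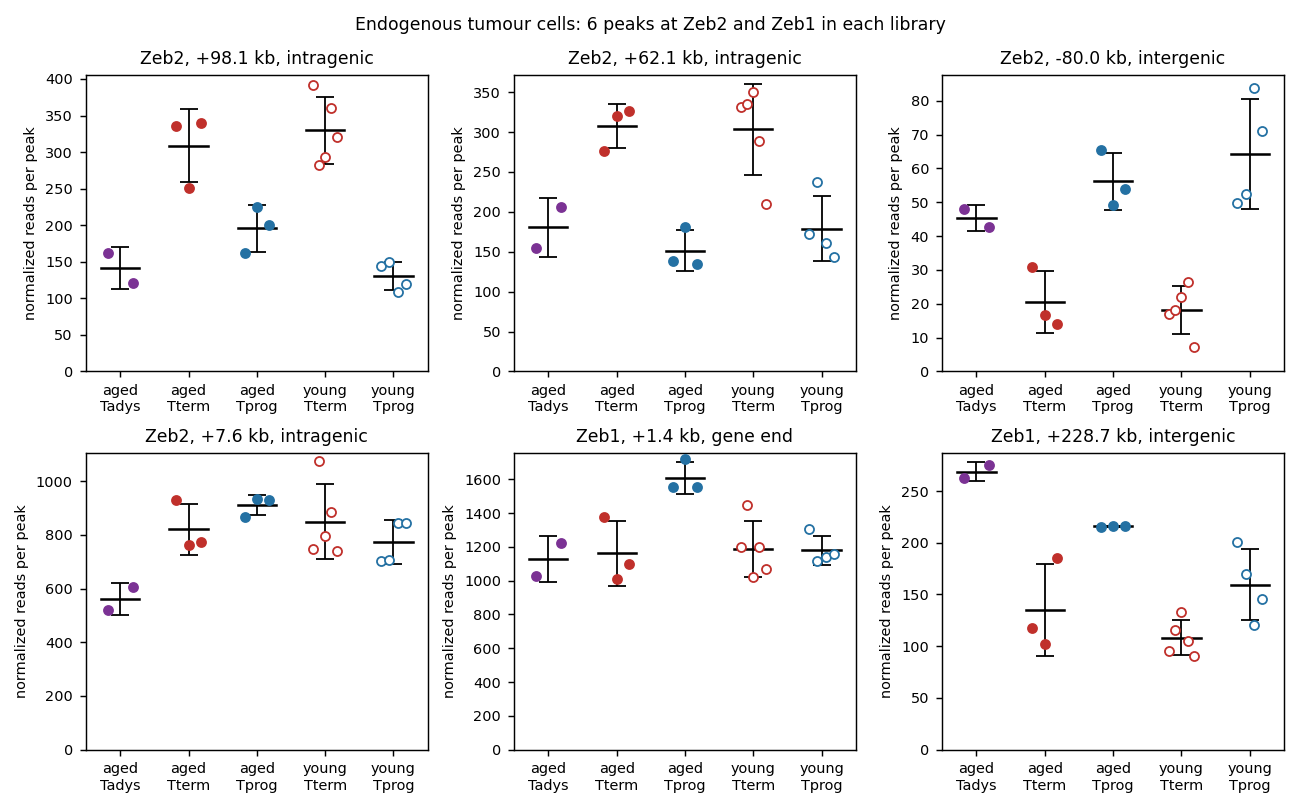
Normalized reads per peak in each endogenous library for 4 Zeb2 and 2 Zeb1 peaks, with filled points for aged and open points for young mice, and black lines for the group mean ± SD (n = 2 Tadys, 3 aged Tterm, 3 aged Tprog, 5 young Tterm, 4 young Tprog); a gene-end peak lies within 1000 bp of either end of the gene. The Zeb2 peak at +98.1 kb is between 251 and 392 in all Tterm libraries and between 108 and 226 in all Tprog and Tadys libraries, and the Zeb1 peak at +228.7 kb is highest in Tadys.

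Zeb1 (gene ID 21417) lies on chromosome 18 between 5591327 and 5775468 in mm10. The annotation used here gives no strand for it, so its end at 5591327 was taken as the start from general knowledge. Few Zeb1 peaks were called between Tterm and Tprog. Their share was below that of all peaks at both ages, but with 14 peaks the gap is of few peaks and was not tested. In young mice 0 of 14 rose and 2 fell (14.3%, beside 25.6% of all peaks), and the median log2 difference was -0.19. In aged mice 0 rose and 1 fell (7.14%, beside 12.1%), with a median of -0.50. The young calls were the downstream intergenic peak at +228.7 kb (5819380 to 5820773), with 95.6, 115, 133, 105 and 90.7 in young Tterm and 201, 170.1, 120.3 and 146 in young Tprog, a difference of -0.54 ± 0.20 (adjusted p = 0.04339), and the intragenic peak at +103.3 kb, averaging 45.3 ± 21.2 in young Tterm and 77.5 ± 17.4 in young Tprog (-0.85 ± 0.31, 0.04544). Values of the groups overlapped at both peaks, and the calls were lost with 7 and 8 of the 9 libraries left out and with quantile scaling (adjusted p = 0.126 and 0.1758).

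The aged call was at the start of Zeb1, the peak at +1.4 kb (chromosome 18, 5591149 to 5594216), which was the highest of the locus. It held 1375, 1008 and 1101 in aged Tterm, against 1553, 1719 and 1556 in aged Tprog. The groups did not overlap and the difference was -0.48 ± 0.14 (adjusted p = 0.02049), lost without aged Tterm replicate 2 (0.1365) or 3 (0.08494) or aged Tprog replicate 2 (0.09213). In young mice the same peak averaged 1188 ± 167 in Tterm and 1179 ± 87.2 in Tprog. The difference between ages in this contrast was -0.48 ± 0.18 and did not pass (adjusted p = 0.5899).

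Tadys libraries had lower values than aged Tterm at most Zeb2 peaks and higher values at most Zeb1 peaks. Of 24 Zeb2 peaks, 21 had a negative log2 difference, with a median of -0.59, while the median of 14 Zeb1 peaks was 0.60 and that of all peaks -0.03. Few of these passed the test, namely 3 Zeb2 peaks that fell and 1 Zeb1 peak that rose, beside 6.3% of all peaks called. Summed over the locus, Zeb2 peaks averaged 3768 normalized reads in Tadys, 5330 in aged Tterm and 4948 in aged Tprog, and Zeb1 peaks averaged 2787, 2492 and 3214 in the same order of groups.

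The Zeb2 peak at +98.1 kb held 162 and 122 in Tadys, below all 3 aged Tterm libraries given above, and fell by 1.12 on the log2 scale (SE 0.24, adjusted p = 0.005785). It averaged 142 ± 28.8 in Tadys and 196 ± 32.3 in aged Tprog, which was not a called difference. The call against aged Tterm was kept with each of the 5 libraries left out, and was lost in a fit of the compared groups alone (adjusted p = 0.05607). The start 4 peak was the member called against both other aged groups, with 519 and 605 in Tadys, against 930.0, 761 and 772 in aged Tterm (-0.54 ± 0.17, adjusted p = 0.04706) and 869, 932 and 931 in aged Tprog (-0.70 ± 0.17, 0.01308). Both Tadys libraries were the lowest of the aged libraries here, and without Tadys replicate 1 neither call held (adjusted p = 0.243 and 0.1234), and that against Tterm was also lost without any 1 of the aged Tterm libraries (0.05789 to 0.1701) and with equal library totals (0.06311), quantile scaling (0.1532) or the compared groups alone (0.133). The start 1 peak held 118 and 126 in Tadys and was not called, and the peak at -21.6 kb, named after its values were seen, averaged 89.5 ± 30.2 in Tadys and 189.6 ± 12.3 in aged Tterm (-1.11 ± 0.28, adjusted p = 0.01815), a call lost without Tadys replicate 1 (0.2002) or aged Tterm replicate 1 (0.05961) or 3 (0.05765).

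At Zeb1, the peak at +228.7 kb held 262 and 275 in Tadys, against 118, 102 and 186 in aged Tterm, a difference of 1.03 ± 0.27 (adjusted p = 0.02219). All Tadys values were above those of aged Tterm, and also above the 215, 216 and 216 of aged Tprog, where the difference was not called. This call was lost without either Tadys library (adjusted p = 0.08302 and 0.0702) or without aged Tterm replicate 1 (0.07789) or 2 (0.07878). Against aged Tprog, 0 Zeb1 peaks rose and 2 fell in Tadys, and 0 Zeb2 peaks rose and 1 fell, beside 6.65% of all peaks. The Zeb1 falls were the start peak, with 1030.0 and 1223 in Tadys (-0.52 ± 0.16, adjusted p = 0.0425), and the peak at +29.6 kb, named after its values were seen, with 34.1 and 13.7 in Tadys and 96.1, 82.1 and 65.6 in aged Tprog (-1.84 ± 0.52, 0.03167). Each of these calls was lost with 4 of the 5 libraries left out, the start peak without Tadys replicate 1 (adjusted p = 0.2693) and the peak at +29.6 kb without Tadys replicate 2 (0.2153), and both without any 1 of the aged Tprog libraries. edgeR did not call either peak (0.05751 and 0.06978). Marker sums overlapped between Tadys and aged Tterm for NK cells (Klrb1c alone has a peak, 223 to 273 against 243 to 343) and for myeloid cells (1308 to 1685 against 1499 to 1878). Against aged Tprog the NK sum stood apart, at 223 to 273 in Tadys and 130.4 to 169 in aged Tprog, while the myeloid sum overlapped (1418 to 1547 in aged Tprog). Over all their peaks in Tadys relative to aged Tprog, 2 of 15 NK and 4 of 35 myeloid peaks rose and 0 fell. Relative to aged Tterm, 1 NK and 1 myeloid peak rose, and 1 of each fell. Of the 11 B cell list peaks, 2 rose and 0 fell relative to aged Tterm, at Pax5, and 0 were called relative to aged Tprog. The part of these markers in the Tadys results was not tested.

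Age within endogenous Tterm and Tprog gave no called member. Among Tterm cells, 0 of 38 members passed, beside 0.00836% of all peaks, and 2 members had an unadjusted p under 0.05. Among Tprog cells, 0 of 38 passed, beside 0.166% of all peaks, and 6 had an unadjusted p under 0.05. edgeR and DESeq2 on the recovered reads also called 0 members in either comparison. The members closest to the threshold in Tprog were the Zeb1 start peak, at 1609 ± 94.9 in aged and 1179 ± 87.2 in young Tprog (0.45 ± 0.13, adjusted p = 0.1337), and the Zeb2 peak at +98.1 kb, at 196 ± 32.3 in aged and 130.3 ± 19.4 in young Tprog (0.58 ± 0.20, adjusted p = 0.2017). Aged and young Tprog libraries did not overlap at either peak. The test of whether age acted differently in Tterm and Tprog called 0 members and 0% of all peaks, with 4 members at an unadjusted p under 0.05. At the +98.1 kb peak this difference was -0.68 ± 0.27 (adjusted p = 0.5914).

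In OT-1 tumour cells, called Zeb2 peaks were higher in Tterm at both ages. In young OT-1 cells 4 of 23 Zeb2 peaks rose and 0 fell in Tterm, and 0 of 17 Zeb1 peaks rose and 2 fell, beside 7.63% of all peaks (4.06% higher and 3.57% lower). The +98.1 kb peak, which began at 45018593 in this table, held between 90.2 and 253 in the 7 young Tterm libraries, with a median of 175, against 42.4 and 51.9 in young Tprog. The groups did not overlap, and the difference was 1.72 ± 0.33 (adjusted p = 0.001414). Within batches 4 and 5 alone it was 1.73 (adjusted p = 0.0009933), and without young Tprog replicate 1 its adjusted p was 0.05238. The NK list (2 of 4 genes with a gene-end peak, Klrb1c and Fcer1g) moved with this contrast, summing to between 339 and 501 in young OT-1 Tterm and between 146 and 180 in young OT-1 Tprog, with 3 of its 14 peaks that rose and 1 that fell. The myeloid sums overlapped (795.0 to 1256 in young Tterm, 734 to 804 in young Tprog), with 7 of 44 peaks that rose and 1 that fell, and the part of these markers was not tested.

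The peak past the downstream end of Zeb2, at +135.9 kb, averaged 170.0 ± 45.2 in young OT-1 Tterm and 66.6 ± 24.1 in young OT-1 Tprog (1.21 ± 0.24, adjusted p = 0.001522), and lost its call without young Tprog replicate 2 (0.1773). The +62.1 kb peak held between 157 and 247 in young Tterm, with a median of 201, against 92.6 and 89.6 in young Tprog (1.15 ± 0.29, adjusted p = 0.01236). Without young Tprog replicate 1 or 2 its adjusted p was 0.1094 or 0.1617. The remaining called Zeb2 peak, at +69.9 kb, averaged 40.9 in young Tterm and 14.2 in young Tprog, and was lost with 3 of 9 libraries left out and by edgeR (0.0525). At Zeb1, the intragenic peak at +103.0 kb, which overlaps the endogenous peak at +103.3 kb, held between 22.2 and 40.1 in young Tterm, with a median of 26.9, against 94.8 and 77.8 in young Tprog (-1.61 ± 0.28, adjusted p = 0.0005747). Zeb1 at +29.3 kb also fell, to 11.9 ± 6.31 in young Tterm, against 43.2 ± 17.8 in young Tprog, and lost its call without young Tprog replicate 1 (0.2754) or 2 (0.06934).

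In aged OT-1 cells 8 of 23 Zeb2 peaks rose in Tterm and 0 fell, and 0 of 17 Zeb1 peaks rose or fell, beside 14.7% of all peaks (11.3% higher and 3.39% lower). This count rests on 2 Tprog libraries that stand apart. Without aged Tprog replicate 1, 2 Zeb2 peaks rose and 1 fell, and without replicate 2, 15 Zeb2 and 4 Zeb1 peaks rose. The split of calls also moved with scaling, since equal library totals gave 5 higher and 2 lower members, and 5745 higher and 6047 lower peaks over the table, against 9477 higher and 2850 lower in the fit described here. The peak over Zeb2 start 1 was among the called peaks, higher in aged Tterm. Its call was lost without the batch term (adjusted p = 0.3331) and by edgeR (0.08375). Without aged Tprog replicate 1 its log2 difference was 0.64. Within batch 6 alone, with 1 Tterm and 2 Tprog libraries, 0 members were called. The NK sum was between 399 and 511 in aged OT-1 Tterm and between 166 and 171 in aged OT-1 Tprog, with 6 of 14 NK peaks that rose and 0 that fell, while the myeloid sums overlapped (10 of 44 peaks rose and 2 fell), and the part of these markers was not tested.

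The +98.1 kb peak held between 112 and 227 in aged OT-1 Tterm, with a median of 191, against 30.3 and 73.2 in aged OT-1 Tprog. Every Tterm library was above both Tprog libraries, with a difference of 2.12 ± 0.40 (adjusted p = 0.0007962), and of 1.50 (0.02671) without Tprog replicate 1. The +135.9 kb peak held between 139 and 233 in aged Tterm, with a median of 192, against 82.6 and 96.5 in aged Tprog (1.43 ± 0.28, adjusted p = 0.00123). This call too held without Tprog replicate 1 (1.32, 0.009638), unlike that at +62.1 kb, which averaged 250.1 ± 54.7 in aged Tterm and 91.9 ± 62.5 in aged Tprog (1.60 ± 0.35, adjusted p = 0.002765) and had 0.86 (0.1125) without that library. Within batch 6 alone the log2 differences at these 3 peaks were 2.13, 1.13 and 1.52, with adjusted p-values of 0.4514, 0.9587 and 0.8683.

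Of the age comparisons, that of naive cells was the one with called members. Of 23 Zeb2 peaks, 7 rose and 0 fell in aged relative to young naive cells, beside 5.24% of all peaks (4.08% higher and 1.16% lower), and 21 of 23 had a positive log2 difference. The median was 1.03 at Zeb2, against 0.25 at Zeb1 and 0.11 over all peaks. Of 17 Zeb1 peaks, 0 rose or fell, with 1 at an unadjusted p under 0.05, and edgeR and DESeq2 also called 0. Summed over the locus, Zeb2 peaks reached 2948 and 2600 normalized reads in aged naive cells, against 1391 and 1373 in young naive cells.

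The +98.1 kb peak led this list too. It held 202 and 157 in aged naive cells, against 18.6 and 24.1 in young naive cells, a difference of 3.01 ± 0.41 (adjusted p = 8.084e-05). This put the aged naive mean of 179.7 beside the 182 of aged OT-1 Tterm and the 174 of young OT-1 Tterm, and the young naive mean of 21.3 below the 47.1 of young OT-1 Tprog. The call was kept under all 9 other settings and with each of the 4 naive libraries left out, with differences between 2.83 and 3.20.

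The other 6 called peaks were spread over the gene body and upstream. At +78.2 kb aged naive cells held 57.1 and 58.8, against 14.1 and 8.82 in young naive cells (2.27 ± 0.57, adjusted p = 0.01674), and at +100.1 kb they held 268 and 203, against 77.8 and 86.6 (1.49 ± 0.32, 0.005199). At +14.1 kb aged naive cells held 107 and 142, against 35.3 and 38.5 in young naive cells (1.71 ± 0.36, adjusted p = 0.004274), and over start 4 639 and 509, against 269 and 251 (1.13 ± 0.26, 0.009642). At +93.3 kb aged naive cells held 60.5 and 61.4, against 29.6 and 26.5 in young naive cells (1.10 ± 0.32, adjusted p = 0.04376), and at -55.4 kb 144 and 139, against 62.3 and 53.7 (1.27 ± 0.33, 0.02176). Aged and young values did not overlap at any of these peaks, but uncalled members often stood apart too. In all, 18 of 23 Zeb2 peaks had both aged values above both young values. At Zeb1, where 0 peaks were called, 8 of 17 had them above and 4 below. With 2 libraries a group these 6 calls were fragile: each was lost with at least 1 of the 4 libraries left out, and the count of calls fell to between 1 (without young naive replicate 1) and 3. The call at +93.3 kb was also lost under 6 of 9 other settings, among them edgeR (adjusted p = 0.08018), DESeq2 (0.05204) and equal library totals (0.1451), and that at -55.4 kb without the batch term (0.06603).

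The peak over Zeb2 start 1, at 195 and 209.8 in aged and 107 and 89.8 in young naive cells, was not called (1.03 ± 0.48, adjusted p = 0.2558). The Zeb1 start peak held 1312 and 1223 in aged naive cells, against 1062 and 1103 in young naive cells, and was not called (adjusted p = 0.8118). Other scalings moved the median of all peaks in this comparison to -0.12 (equal library totals) or -0.02 (quantile scaling), and 6 Zeb2 peaks rose and 0 fell under each. Marker sums over gene-end peaks moved with age in the same libraries, in every list that was read. The NK cell list (Klra8 and Ncr1 have no such peak) summed to between 249 and 269 in aged and between 156 and 157 in young naive cells, and over all its peaks 2 of 14 rose and 0 fell. The myeloid list summed to between 1122 and 1167 in aged and between 797 and 858 in young naive cells, but within it Flt3 went the other way, at 52.1 to 62.1 in aged and 132 to 164 in young naive cells, and over all 44 peaks 0 rose and 3 fell (at Flt3 and Itgam), with a median of -0.24. Cd79a, the B cell gene with a gene-end peak, had between 69.9 and 82.3 in aged and between 108 and 109 in young naive cells, while over the 11 peaks of the B cell list 0 were called and the median was 0.47. The sums were also higher in aged than in young naive cells for the melanoma list (556 to 597 against 388 to 400.2), the CD8 T cell list (3537 to 3636 against 3074 to 3157) and the CD4 T cell list (429 to 444 against 357 to 363). Over all peaks, 1 of 29 in the CD8 list and 0 in the CD4 and melanoma lists rose, and 0 fell. The part of these markers in the result was not tested.

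**Figure D3:**
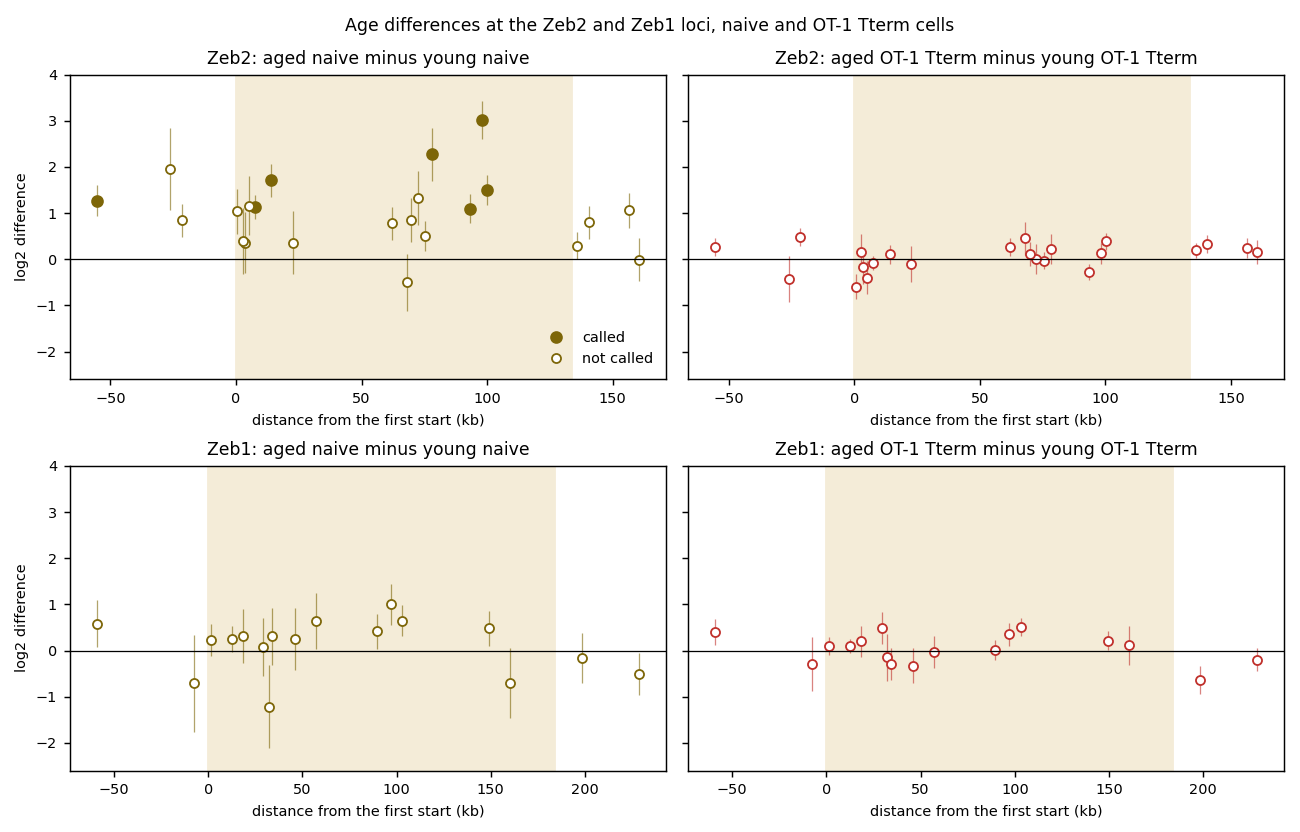
Log2 difference (limma, bars ± SE) between aged and young cells for each tested Zeb2 peak (top, 23) and Zeb1 peak (bottom, 17), against distance from the first start in kb, in naive cells (left) and OT-1 Tterm cells (right). Filled points are called and the shaded band is the gene body; 7 Zeb2 points in naive cells are filled and no point is filled in OT-1 Tterm cells.

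In OT-1 Tterm cells no member was called for age. Of 40 members, 0 passed, beside 0.266% of all peaks, with 5 at an unadjusted p under 0.05 and 0 calls by edgeR or DESeq2. The +98.1 kb peak had a difference of 0.12 ± 0.23 (adjusted p = 0.9356). The difference between the age effects in naive and OT-1 Tterm cells, a comparison added after the data were seen, was called at 4 of 23 Zeb2 peaks and 0 of 17 Zeb1 peaks, beside 2.03% of all peaks. The Zeb2 calls were all higher in naive cells, at +98.1 kb (2.89 ± 0.47, adjusted p = 0.00174), +14.1 kb (1.61 ± 0.41, 0.03668), over start 4 (1.21 ± 0.30, 0.03167) and at +93.3 kb (1.38 ± 0.37, 0.04779). The call at +98.1 kb was kept with each of 17 libraries left out, and the other 3 calls were each lost with any of the 4 naive libraries left out and with no filter on low peaks, that at +93.3 kb also by edgeR (0.07633). Batch cannot be told apart from naive state here.

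OT-1 cells were compared with naive cells of the same age, and the naive group enters each of these comparisons in full. Because tumour and naive libraries came from different batches and tissues, cell state, tissue and batch cannot be told apart. The NK sums given above for OT-1 Tterm, which rest on the gene ends of Klrb1c and Fcer1g, exceed those of naive cells of the same age without overlap. Over all 14 NK peaks, 3 rose and 3 fell in young OT-1 Tterm relative to naive cells. Among aged cells 1 NK peak rose and 6 fell. The part of these markers was not tested. Among young cells, 10 Zeb2 peaks rose and 1 fell in OT-1 Tterm relative to naive cells, and 1 Zeb1 peak rose and 3 fell, beside 40.3% of all peaks. Among aged cells, 7 Zeb2 peaks rose and 6 fell, and 1 Zeb1 peak rose and 6 fell, beside 47.7% of all peaks. The median log2 difference of Zeb2 peaks was -0.29 in aged cells, where that of all peaks was -0.17, and 1.02 in young cells, where that of all peaks was -0.06.

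Some peaks rose in tumour cells of both ages. The peak at -55.4 kb held between 201 and 407 in young OT-1 Tterm (median 305), against 62.3 and 53.7 in young naive cells (2.57 ± 0.27, adjusted p = 9.007e-08), and between 221 and 509 in aged OT-1 Tterm (median 419), against 144 and 139 in aged naive cells (1.56). The peak downstream of Zeb2 at +160.5 kb averaged 299.9 ± 76.7 in aged OT-1 Tterm and 46.0 ± 0.315 in aged naive cells (2.66, adjusted p = 6.076e-06), and 268 ± 76.2 in young OT-1 Tterm and 46.3 ± 3.69 in young naive cells. At Zeb1, the peak at +149.2 kb held between 38.8 and 84.9 in aged OT-1 Tterm (median 58.6), against 17.6 and 13.7 in aged naive cells, and between 20.3 and 71.4 in young OT-1 Tterm (median 55.9), against 16.1 and 7.22 in young naive cells (2.28 ± 0.31, adjusted p = 3.071e-06).

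The +98.1 kb peak was called against young naive cells and not against aged naive cells in Tterm. Among young cells it averaged 174 ± 52.9 in OT-1 Tterm and 21.3 ± 3.83 in naive cells (2.83, adjusted p = 3.795e-07). Among aged cells it averaged 182 ± 42.7 in OT-1 Tterm and 179.7 ± 32.2 in naive cells, and in aged OT-1 Tprog it fell to 51.7 ± 30.4 (-2.18, adjusted p = 0.001874; -1.55 and 0.02392 without Tprog replicate 1). Both start peaks were lower in aged tumour cells, Zeb2's start 1 at 64.1 ± 30.4 in aged OT-1 Tterm and 202 ± 10.6 in aged naive cells (-1.94, adjusted p = 0.0003737), and Zeb1's start at 704 ± 84.6 and 1268 ± 63.0 in the same groups. Zeb1's start also fell to 696 ± 175 in young OT-1 Tterm, against 1082 ± 29.0 in young naive cells (-0.81, adjusted p = 0.02657). The Zeb1 start calls were lost without either naive library of the same age, with adjusted p-values of 0.09749 and 0.05833 in aged cells and 0.1244 and 0.1516 in young cells.

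In OT-1 Tprog relative to naive cells, 8 Zeb2 peaks rose and 1 fell among young cells, and 3 Zeb1 peaks rose and 1 fell, beside 24.2% of all peaks. Among aged cells 1 Zeb2 peak rose and 7 fell, and 1 Zeb1 peak rose and 3 fell, beside 28.1% of all peaks. The rise in young cells was led by the -55.4 kb peak, at 476 and 519 in OT-1 Tprog, against 62.3 and 53.7 in naive cells (3.08, adjusted p = 4.086e-07), and the fall by the +135.9 kb peak, at 83.7 and 49.5 in OT-1 Tprog, against 218 and 200.5 in naive cells (-1.69, adjusted p = 0.0001318). At Zeb1, the fall of lowest adjusted p was at +18.5 kb, for Tprog and for Tterm against naive cells at both ages. Its call in young OT-1 Tprog was lost without the batch term (-1.61, adjusted p = 0.07003). Among aged cells without OT-1 Tprog replicate 1, 3 Zeb2 peaks rose and 4 fell, and 1 Zeb1 peak rose and 2 fell.

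**Figure D4:**
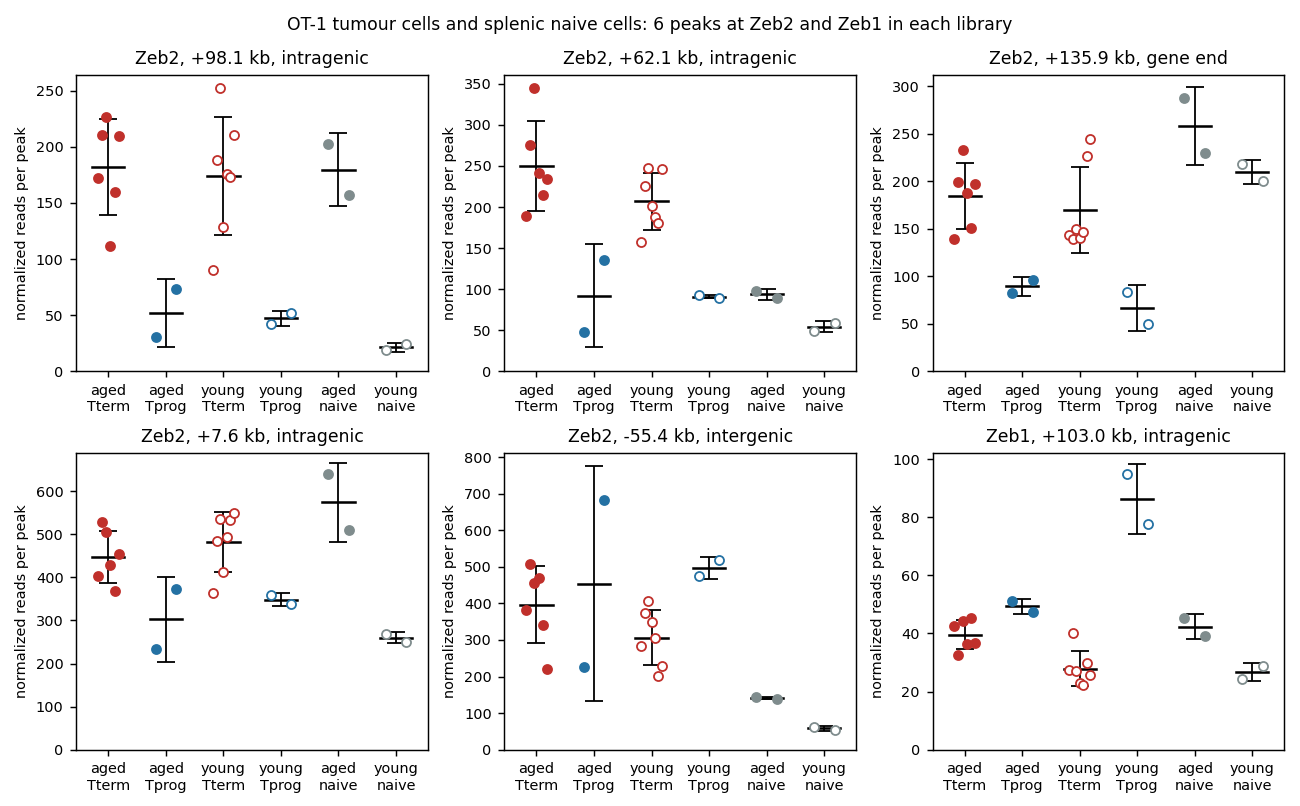
Normalized reads per peak in each library for 5 Zeb2 peaks and 1 Zeb1 peak, with filled points for aged and open points for young cells and black lines for the group mean ± SD (n = 6 aged and 7 young OT-1 Tterm, 2 in each other group). At +98.1 kb both aged naive libraries, at 202 and 157, lie within the range of OT-1 Tterm, and both young naive libraries, at 18.6 and 24.1, lie below every other library.

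Genes that act with or against Zeb2 and Zeb1 were read from lists written from general knowledge. The effector list (Tbx21, which encodes T-bet, Klrg1, Cx3cr1, S1pr5, Gzma, Gzmb, Prf1, Prdm1, Id2 and Klf2) had 45 of 90 peaks that rose and 6 that fell in young endogenous Tterm relative to Tprog, with a median log2 difference of 0.49 against -0.01 over all peaks, of which 25.6% were called. At the peak of lowest adjusted p of each gene, Klrg1, an inhibitory receptor of terminal effector cells, averaged 573 in young Tterm and 271 in young Tprog (1.08, adjusted p = 7.242e-06), and Cx3cr1, a chemokine receptor, averaged 152 in young Tterm and 40.0 in young Tprog (1.99, 2.488e-05). The list was not uniform, since called peaks of S1pr5 and Klf2 were only lower in young Tterm. Those of Tbx21 and Prdm1 went both ways. The memory and progenitor list (10 genes, among them Tcf7, Il7r and Id3) had 1 of 96 peaks that rose and 46 that fell, with Id3, an inhibitor of E-proteins, at 120.5 in young Tterm and 735 in young Tprog (-2.66, adjusted p = 2.449e-10). In aged endogenous cells 31 effector peaks rose and 3 fell, and 0 memory peaks rose and 40 fell, beside 12.1% of all peaks called. These lists follow the sorted populations and were chosen with such results known.

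In Tadys relative to aged Tterm, 3 of 90 effector peaks rose and 13 fell, and 15 of 96 memory peaks rose and 2 fell, beside 6.3% of all peaks called. The effector rises were at Klf2, S1pr5 and Tbx21, and the falls at Gzmb, Klrg1 and Prdm1. The memory falls were at Eomes. Gzmb, the gene of the protease granzyme B, averaged 102 in Tadys and 224 in aged Tterm at its peak of lowest adjusted p (-1.14, adjusted p = 0.005053), and Tcf7, which encodes TCF1, averaged 631 in Tadys and 208 in aged Tterm (1.60, 4.492e-05). In aged relative to young naive cells, 22 of 100 effector peaks rose and 1 fell, and 23 of 135 memory peaks rose and 5 fell, beside 5.24% of all peaks. There Gzmb averaged 352 in aged and 93.1 in young naive cells (1.90, adjusted p = 0.0005255) and Klrg1 averaged 74.9 in aged and 21.3 in young naive cells (1.76, 0.001066), while Cx3cr1 fell to 31.5 in aged naive cells, against 91.8 in young naive cells (-1.52, 0.003863). In young OT-1 cells, 27 of 100 effector peaks rose and 1 fell in Tterm, and 0 of 135 memory peaks rose and 36 fell, beside 7.63% of all peaks.

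The TGF-beta and co-repressor list (14 genes, with the receptors, Smad genes, Ctbp1 and Ctbp2) had 17 of 113 peaks that rose and 11 that fell in young endogenous Tterm, 24.8% in all and near the 25.6% of all peaks. Its members included Smad3, a signal transducer, at 629 in young Tterm and 261 in young Tprog (1.26, adjusted p = 8.457e-07), and Tgfbr2, a receptor chain, at 116 in young Tterm and 390.0 in young Tprog (-1.73, 8.635e-08). In Tadys relative to aged Tterm 2 of these peaks rose and 10 fell (10.6%, beside 6.3%), and in aged naive cells 4 of 145 rose and 0 fell (2.76%, beside 5.24%). Of the list of Cdh1 and the E-protein genes, 3 of 40 peaks rose and 8 fell in young endogenous Tterm (27.5%, beside 25.6%), with Cdh1 at 1480 in young Tterm and 778 in young Tprog (0.91, adjusted p = 6.936e-06). In naive cells Cdh1 was the only gene of that list called for age, at 657 in aged and 339 in young naive cells (0.96, adjusted p = 0.02173). Genes beside the loci (Gtdc1, Arhgap15 and Kynu near Zeb2, Arhgap12, Zfp438 and Svil on the chromosome of Zeb1, and Nrp1, which in the mouse lies on chromosome 8) had 12 of 108 peaks that rose and 31 that fell in young endogenous Tterm (39.8%, beside 25.6%), and 7 of 123 that rose and 0 that fell in aged naive cells (5.69%, beside 5.24%). In the age comparisons of endogenous Tterm and Tprog, 0 peaks of any of these lists were called.

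Across the 17 endogenous libraries, the genes whose summed peaks followed those of Zeb2 most closely were Tgds (Pearson r = 0.97), Poc1b, Galc, Scel and Osbpl8, of 8385 genes with at least 3 tested peaks. Across the 21 OT-1 and naive libraries they were Klrc2 (r = 0.97), Ccdc50, Tnfsf10, Plek and Cd38, of 9369 genes. For Zeb1 they were Dym (r = 0.91), Gm46319, Tmem232, Erich1 and Rassf2 in the endogenous table, and Ncoa7 (r = 0.95), Rbm33, Dhx40, H60b and 2610301B20Rik in the other. The sums of Zeb1 and Zeb2 had an r of 0.007 and -0.03 in these tables. These values describe libraries that share groups and scaling, and carry no test.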

How the data were processed

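CD8+ T cells were profiled by ATAC-seq in 38 libraries with reads of 50 bp, per the labels' protocols. The submitters' processing notes name MACS2 2.1.1, SAMtools 1.3.1, DESeq2 1.28.1, Bowtie2 2.2.9 and Picard 2.8.0, with mm10. No source used here states how reads were shifted, peaks merged or libraries pooled. The authors deposited signal values per peak, which are reads divided by a size factor per library, in 2 tables normalized separately, so tests stayed within a table. Whole reads were recovered from every column (tolerance 0.01) and gave depth and the count tests. No column was left out.

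Peaks went to their nearest gene body among 21900 RefSeq protein-coding genes of GRCm38.p6, up to 100 kb. Peaks within 1000 bp of a gene's end are gene-end peaks. Peaks with a mean of 10 or more were tested, 71756 and 84091, with limma 3.58.1 in R 4.3.3 on log2 of the value plus 1, all groups of a table in 1 model with an intensity trend and, in the second table, a batch 6 term. Limma p-values were adjusted by Benjamini-Hochberg over all tested peaks. The 15 comparisons, and 1 added after the data were seen, were recomputed under other pseudocounts, filters, scalings and distances, a replicate block, the compared groups alone, single batches, edgeR 4.0.16, DESeq2 1.42.0 and each library left out. The limma fit was also run on simulated reads with a common dispersion and no batch effect. That setting does not cover replicates that stand apart. The main fit did not treat replicate numbers as pairs. Of same-numbered pairs, 3 of 27 endogenous and 5 of 34 in the other table deviated together with a correlation over 0.1. Of differently numbered pairs, 20 of 86 and 14 of 136 did. These counts cannot show whether libraries came from the same animals.

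Members and lists were chosen with earlier results of these data known. Chosen to be given were gene-end peaks, the highest peak of a locus, the called peak of lowest adjusted p in each direction, and peaks called for age. Some of these are given by name alone or not in every comparison. Others are said to be named after their values were seen or are given by counts. Genes of like pattern are the 5 of highest Pearson r of log2 summed peaks. Python 3.11.15, pandas 2.3.3 and matplotlib 3.10.9 prepared tables and plots.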

Additional observations from a re-analysis of the deposited data

Results flagged for a closer look

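At Zeb2 start 1 in endogenous cells, young Tterm replicate 5 held 120.6 normalized reads while the other 4 young Tterm libraries held at least 185.7, a gap of 0.872 of the group's range. At the Zeb1 peak at +18.5 kb, young OT-1 Tterm replicate 6 held 131.0, with the next of the 7 libraries at 78.9, a gap of 0.582 of the range. These were 2 of 56 sets of library values checked in this way, and chance gives about 1 in 20.

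The age effect (aged minus young) differed between naive cells and OT-1 Tterm cells at 4 Zeb2 peaks by the fitted test of the difference itself. The log2 differences between the effects were 2.89 at +98.1 kb, 1.38 at +93.3 kb, 1.61 at +14.1 kb and 1.21 over start 4.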

How the results depend on the processing

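Of 107 called pairs of a member peak and a comparison, 56 were kept under all other settings and 36 of these also with each library left out, and 0 changed direction. Counts of called members moved by over 1.5 times as follows. With the compared groups fitted alone, 0 members were called for Tadys against aged Tterm (4 in the fit described above), Tadys against aged Tprog (3), aged OT-1 Tterm against Tprog (8) and aged OT-1 Tprog against naive cells (12), while 17 were called for age in naive cells (7) and 8 for the difference of age effects (4). Batch 6 alone gave 0 for aged OT-1 Tterm against Tprog. edgeR called 5 there and 1 for Tadys against aged Tprog, and DESeq2 called 7 for Tadys against aged Tterm. Members within 10 kb of a gene body numbered 2 calls for Tadys against aged Tterm and 8 for young OT-1 Tprog against naive cells (13). With no filter, 1 was called for the difference of age effects.

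With a library left out, calls ranged between 5 and 8 in young and 2 and 5 in aged endogenous Tterm against Tprog, 1 and 6 for Tadys against aged Tterm and against aged Tprog, 2 and 7 in young and 3 and 19 in aged OT-1 Tterm against Tprog, 1 and 3 for naive age, and 1 and 4 for the difference of age effects. Against naive cells they ranged between 11 and 15 (young Tterm), 8 and 10 (young Tprog), 10 and 19 (aged Tterm) and 9 and 21 (aged Tprog). They stayed at 0 for endogenous and OT-1 Tterm age. With the replicate number as a block, calls were 7 in young and 4 in aged endogenous Tterm against Tprog, 4 and 3 for Tadys. The block ended the aged Tterm calls at +98.1 kb (adjusted p = 0.05808) and +22.9 kb (0.06309), the young Zeb1 calls at +228.7 kb (0.1228) and +103.3 kb (0.07529) and the Tadys call against aged Tterm at start 4 (0.07538). Equal library totals moved the median of all peaks by over 0.1, to -0.17 in young endogenous Tterm against Tprog. Depth limits the smallest peaks most, and 32 members were not tested.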
